A study of Mus musculus with 2 samples.

Results

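The 9 genes Tgm1, Tgm3, Tgm5, Alox12b, Aloxe3, Abca12, Elovl4, Cers3 and Asprv1, which act in cross-linking the cornified envelope and in building the lipid barrier of stratified epithelia, were followed in colonies grown from mouse mammary basal cells. They were chosen by name from the 49492 genes of the count table, with earlier results of these data known. All 9 were present in the table. Basal cells (lin-CD24+CD29hi) had been sorted from the mammary glands of WT adult female mice and grown in 3D matrix gel for 10 days. One culture received TNF-α at 10 ng/mL, a cytokine made by macrophages among other cells, and the control culture received none. Both cultures had EGF and ITS in the medium. Each condition had 1 library, so no value below has a replicate check. What TNF-α did and what merely set the 1 culture apart from the other cannot be told apart. How many animals went into a culture, and whether both came from the same sort, was not given in the sources used here.

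In skin, keratinocytes that leave the basal layer replace their plasma membrane with a cornified envelope. Transglutaminases link envelope proteins to each other through glutamine and lysine side chains. In parallel, very long fatty acids are joined to sphingoid bases to make acylceramides, which are loaded into lamellar granules, secreted, oxidised by lipoxygenases and attached to the envelope. Inherited loss of most of these genes gives ichthyosis or peeling skin in people. The mammary gland is a skin appendage, and its epithelium does not form a cornified layer in the normal duct.

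Elovl4 and Aloxe3 were more than 2-fold lower in the TNF-α library, and Alox12b, with 8 and 2 counts, was the member more than 2-fold higher. The other 6 members lay within 2-fold. Tgm1, Tgm5 and Abca12 were lower by less than 2-fold with intervals below 0, Cers3 was higher with an interval above 0, and the intervals of Asprv1 and Tgm3 included 0. Ratios were taken on a log2 scale from CPM, the counts of a gene scaled to a common library size, after TMM scaling and with 2 as prior count. They were computed where both libraries together held 10 counts or more, which 20771 genes did. All 9 members passed this filter, Alox12b at exactly 10 counts. A gene past 2-fold is termed called, and no p-value is given because a group of 1 library leaves nothing to test against. Of all 20771 genes, 6.62% were called lower and 8.56% were called higher, against 2 and 1 of the 9 members. Among the 16617 genes with at least 50 counts, a limit set after seeing the data, 4.33% were called lower and 5.61% higher, against 2 and 0 of the 7 members at that depth. The median log2 ratio of the 9 members was -0.55, and that of all genes compared was 0.0038. Of the 9 members, 7 lay below 0, against 49.4% of all genes compared.

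The libraries held 44462275 counts (control) and 53487087 counts (TNF-α), with scaling factors of 1.002 and 0.998, so that 10 counts equalled 0.224 CPM and 0.187 CPM. Even counts were in excess among rare genes, with 2172 genes at 2 counts and 618 at 1 count in the control, as is seen where each end of a fragment adds its own count. All intervals are 95% Clopper-Pearson (ratios, shares) or exact Poisson (levels) intervals. They cover counting error only and take each count as independent, which reads copied by PCR are not. With halved counts the intervals are wider. The basal markers were abundant, with 229766 and 259922 counts of Krt14 in the control and TNF-α libraries, and 1 of 8 basal markers was called (Oxtr, lower). Of 9 luminal markers, 3 were called lower (Esr1, Pgr and Prlr), against 6.62% of all genes compared. The summed level of the luminal list was 4249 CPM in the control and 3451 CPM with TNF-α. Leukocyte markers summed to 6.48 and 5.25 CPM, with Cd3e at 0 in both libraries, and endothelial markers to 7.07 and 6.67 CPM, with 0 of 5 and 0 of 4 members compared called. Fibroblast markers summed to 499 and 486 CPM, and 1 of 6 was called (Dcn, higher, 184 counts in the control and 582 with TNF-α). Of 6 inner root sheath markers of the hair follicle, where Tgm3 is used, 4 were compared. Krt27 (0 and 18 counts) and Krt73 (4 and 49 counts) were called higher. Tchh (2132 and 2780 counts) and Krt71 (124 and 160 counts) were not called, and the whole list summed to 50.8 and 56.4 CPM. Individual markers named here were chosen after their values were seen. The part of these cell types in the members' values was not tested, and in a bulk sample fewer cells of a type and less RNA per cell cannot be told apart.

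**Figure D1:**
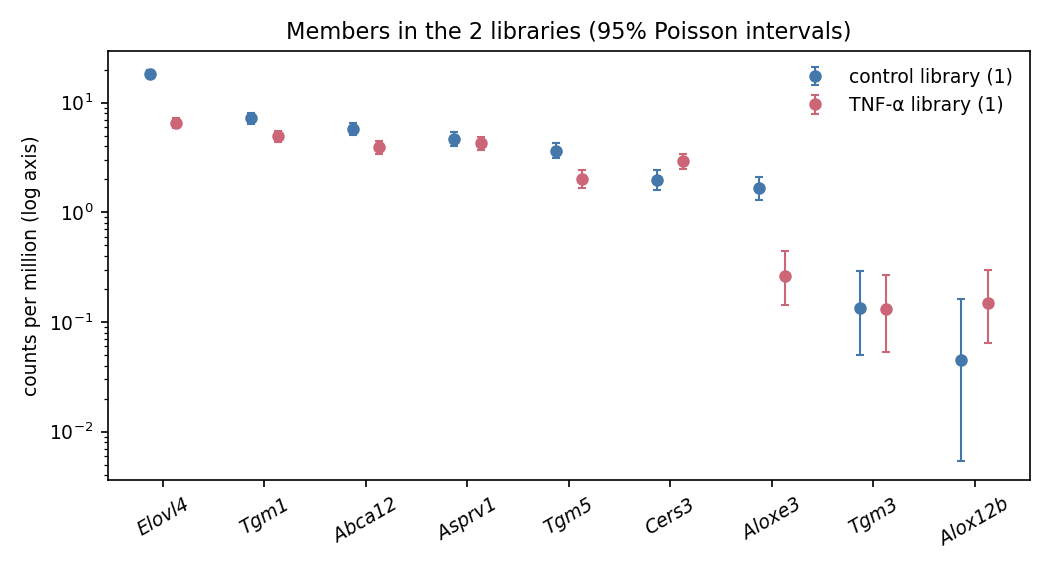
CPM of each member (log axis) in the control library (blue) and the TNF-α library (red), 1 library each, ordered by the control level. Points are the measured values and bars the 95% Poisson intervals for counting error. Elovl4 and Aloxe3 show the widest gaps with separate intervals, Cers3 is the member above 1 CPM that was higher with TNF-α, and Tgm3 and Alox12b lie below 0.2 CPM in both libraries.

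Transglutaminase members came first, as the enzymes that seal the envelope. Their coding sequences around the catalytic cysteine are shown because they mark the members as 1 family and show how far reads can tell them apart. Each line holds 63 bases of the GENCODE M21 coding transcript, with the codon of the active-site cysteine in capitals.
Tgm1: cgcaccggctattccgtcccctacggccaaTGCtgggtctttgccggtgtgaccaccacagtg
Tgm3: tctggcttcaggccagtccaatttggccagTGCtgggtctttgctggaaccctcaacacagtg
Tgm5: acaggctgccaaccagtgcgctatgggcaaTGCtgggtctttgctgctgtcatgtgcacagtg
Over these bases Tgm1 and Tgm5 shared 42 of 63 positions, Tgm3 and Tgm5 shared 43, and Tgm1 and Tgm3 shared 38. Over the longest coding transcript of each gene, the longest identical run between any of these 3 genes and another transglutaminase was 24 bases. Longer exact matches thus tell these 3 apart from the rest of the listed family. Other transcripts and the rest of the genome were not searched.

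Tgm1 encodes the membrane-anchored transglutaminase of keratinocytes and lies on the minus strand of chromosome 14 (GRCm38, 55700009 to 55713492). It had 321 counts in the control and 262 with TNF-α, or 7.20 and 4.91 CPM. The log2 ratio of Tgm1 was -0.55 (95% interval -0.79 to -0.31, and -0.89 to -0.21 with halved counts). Tgm5, a second epidermal transglutaminase, lies on chromosome 2 from 121046111 to 121085841 on the minus strand. Its counts were 162 and 108, or 3.63 CPM in the control and 2.02 CPM with TNF-α. Its log2 ratio of -0.83 was the lowest among the 3 transglutaminases, and the interval from -1.21 to -0.48 spanned the 2-fold limit. Within a library the counts of Tgm5 per length were 0.481 of those of Tgm1 in the control (95% interval 0.396 to 0.583) and 0.393 with TNF-α (0.311 to 0.493), so the intervals overlap. Tgm3, which acts in the hair follicle and upper epidermis, lies 8926507 bases from Tgm5 on the same chromosome (130012349 to 130050399, plus strand). It had 6 counts in the control and 7 with TNF-α, and its log2 ratio of -0.03 had an interval from -1.83 to 1.81. A difference of Tgm3 was not detectable at this depth.

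The rest of the transglutaminase family was dominated by Tgm2, the tissue transglutaminase found in most cell types. Tgm2 had 10013 counts in the control and 6119 with TNF-α, a log2 ratio of -0.97 (95% interval -1.02 to -0.92), and its exons overlap those of Rprd1b and Gm20412 on the opposite strand by 370 and 633 bases. Per length Tgm2 gave 90.3% of the counts of the 9 family genes in the control and 85.8% with TNF-α. Tgm1 gave 4.44% and 5.63%, Tgm5 2.13% and 2.21%, and Tgm3 0.0603% and 0.109%. The family sum was 54.0 RPKM (CPM per kilobase of exon) in the control and 29.02 RPKM with TNF-α, and Tgm2 alone was at 48.8 and 24.9 RPKM. F13a1, the factor XIII A chain, had log2 ratio 0.27 with 147 and 212 counts. Tgm4, the prostate transglutaminase, was at 0.07 with 148 and 186 counts, and its exons share bases with Zdhhc3 and RP23-453B15.8. Epb42, a family relative without enzyme activity, was called higher on 3 and 14 counts. Tgm7 had 6 and 0 counts and was not compared, and Tgm6 had 0 counts in both libraries, which allows up to 0.0673 CPM in the control and 0.0562 CPM with TNF-α.

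**Figure D2:**
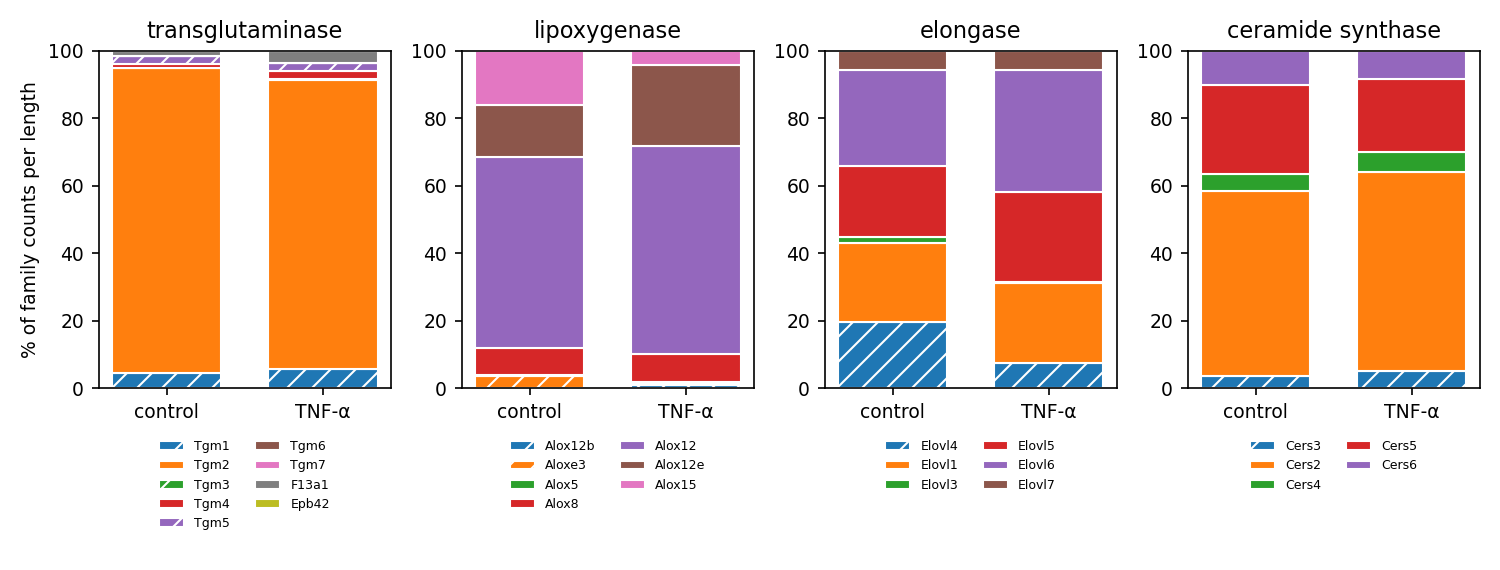
Share of each gene in the counts per length of its family (stacked bars from 0 to 100%), for the listed transglutaminases, lipoxygenases, elongases and ceramide synthases, in the control and TNF-α libraries, 1 library each. Hatched blocks are the members. The Elovl4 block goes from 19.6% to 7.59%, and Tgm2 holds 90.3% and 85.8% of its family.

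Elovl4 elongates fatty acids to the ultra-long chains that acylceramides need, and it was the most highly counted member. It lies on the minus strand of chromosome 9, from 83778692 to 83806277. It had 820 counts in the control and 347 with TNF-α, or 18.4 and 6.50 CPM. Elovl4 was therefore 2.82-fold lower, a log2 ratio of -1.49 (95% interval -1.69 to -1.32, and -1.77 to -1.25 with halved counts). This placed it at percentile 3.12 of all genes compared. Among the 6 listed elongases Elovl4 gave 19.6% of the counts per length in the control and 7.59% with TNF-α. Elovl3, which makes saturated very long chains in sebaceous cells and was named after its values were seen, was also called lower (38 and 8 counts). Elovl1, Elovl5, Elovl6 and Elovl7 had log2 ratios from -0.19 to 0.23 and were not called, so 2 of the 6 elongases were called lower.

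Cers3 joins these ultra-long acyl chains to the sphingoid base. It lies on chromosome 7 from 66743504 to 66823691 on the plus strand. Its counts were 88 in the control and 156 with TNF-α, or 1.97 and 2.92 CPM. The log2 ratio of 0.56 had an interval from 0.18 to 0.96, and from 0.01 to 1.13 with halved counts. Cers3 was not called, and of the 7 members with at least 50 counts it was the one above 0. It took 3.71% of the counts per length of the 5 listed ceramide synthases in the control and 5.004% with TNF-α, behind Cers2 at 54.8% and 59.0%. Cers2, Cers4, Cers5 and Cers6 had log2 ratios of 0.24, 0.42, -0.16 and -0.12. Compared inside each library, which needs no scaling between libraries, Cers3 counts per length were 0.0997 of those of Elovl4 in the control (95% interval 0.0791 to 0.124) and 0.418 with TNF-α (0.344 to 0.506). These intervals do not overlap, and this covers counting error only.

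The sequences ahead of both start sites are shown because Elovl4 and Cers3 act on the same acyl chain and had ratios on opposite sides of 0. They are the 250 bases before the RefSeq start in GRCm38.p6, read 5′ to 3′ on the gene's strand. Capitals mark matches to a loose NF-κB motif, GGGNNNNNCC on either strand, since NF-κB is a factor downstream of TNF-α receptors. The Elovl4 window is chr9:83806306-83806555 on the minus strand, and the Cers3 window is chr7:66743254-66743503 on the plus strand.
Elovl4: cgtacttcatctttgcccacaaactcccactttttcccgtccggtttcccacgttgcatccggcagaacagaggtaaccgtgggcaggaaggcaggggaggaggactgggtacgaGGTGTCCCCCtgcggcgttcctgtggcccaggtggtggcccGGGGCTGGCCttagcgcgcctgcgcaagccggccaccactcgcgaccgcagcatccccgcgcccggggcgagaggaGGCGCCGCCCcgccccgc
Cers3: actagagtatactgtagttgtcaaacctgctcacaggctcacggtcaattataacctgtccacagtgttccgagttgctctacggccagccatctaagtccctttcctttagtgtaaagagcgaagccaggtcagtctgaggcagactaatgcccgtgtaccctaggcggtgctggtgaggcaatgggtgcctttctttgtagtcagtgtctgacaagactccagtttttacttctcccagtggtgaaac
The Elovl4 sequence held 3 matches, which began at positions -135, -94 and -18 from the start site, and the Cers3 sequence held 0. Windows of 300 bases, which add 50 bases after the start, were available for 8 of the 9 members. In these windows 50.8% of all 32817 promoters held this motif, and so did windows of Abca12, Alox12b, Asprv1, Elovl4 and Tgm1 (1 of its 2 windows), with the 2 matches of Asprv1 overlapping. The AP-1 motif TGANTCA (7.81% of all windows) and the grainyhead motif AACCGGTT (0.146%) were found in no member window. The TATA motif TATAAA (13.6%) was found once, in Tgm3, at position -28. Of the members with an NF-κB match, Elovl4 was called lower, Alox12b was called higher, and Abca12, Asprv1 and Tgm1 were not called. A match is a description of letters and not of binding, and its relation to the ratios was not tested. Elovl4 had the window richest in G and C, at 71.0% against a median of 52.7% over all windows, and Cers3 had 50.7%.

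Abca12 moves glucosylceramides into lamellar granules. It lies on the minus strand of chromosome 1, from 71242276 to 71414910. Its counts were 258 in the control and 210 with TNF-α, or 5.79 and 3.94 CPM. The log2 ratio of Abca12 was -0.55 (95% interval -0.83 to -0.29), close to that of Tgm1. Counts of Abca12 per length were 0.163 of those of Tgm1 in both libraries (95% interval 0.138 to 0.193 in the control and 0.135 to 0.196 with TNF-α).

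Alox12b and Aloxe3 work in sequence on the linoleate of acylceramides, the first (12R-lipoxygenase) by adding oxygen and the second (epidermis-type lipoxygenase 3) by rearranging the product. They are neighbours on the plus strand of chromosome 11, Aloxe3 from 69125896 to 69149115 and Alox12b from 69156989 to 69169792, with 7873 bases and 0 listed genes between them. The longest run their coding transcripts share is 29 bases, printed here because reads no longer than that could come from either gene.
Alox12b and Aloxe3: gaggacagcttctttgggtaccagtacct
Aloxe3 had 74 counts in the control and 14 with TNF-α, or 1.66 and 0.262 CPM. It was 5.61-fold lower, with a log2 ratio of -2.49 (95% interval -3.60 to -1.83, and -4.07 to -1.48 with halved counts), at percentile 0.900 of all genes compared. Alox12b had 2 counts in the control and 8 with TNF-α. Its log2 ratio of 1.15 had an interval from -0.58 to 5.01, which includes no change, so its call rests on very few reads. Of the summed counts of the pair, Aloxe3 made up 97.4% in the control (95% interval 90.8% to 99.7%) and 63.6% with TNF-α (40.7% to 82.8%). These shares do not allow for exon length, which is 6397 bases for Aloxe3 and 2431 for Alox12b. Per length, the ratio of Aloxe3 to Alox12b was 14.1 in the control (95% interval 3.76 to 118). With TNF-α it was 0.665 (0.260 to 1.83), so which of the 2 was higher there is not resolved.

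Per length, Alox12, Alox12e, Alox15 and Alox8 were above both members in both libraries, and Alox5 was below Aloxe3 in both. Alox12, the platelet-type 12S enzyme also found in epidermis, gave 56.4% of the family counts per length in the control and 61.6% with TNF-α, with 804 and 948 counts and a log2 ratio of -0.02. Alox15 was called lower, from 138 counts to 38 (log2 ratio -2.06, 95% interval -2.68 to -1.59). Alox12e, with 152 and 256 counts, had a log2 ratio of 0.49. Alox8 and Alox5 were at -0.09 and -0.20, Alox5 on 6 counts in each library. Of these 5 lipoxygenases outside the members, 1 was called lower and 0 higher, against 6.62% and 8.56% of all genes compared. The family sum was 7.83 RPKM in the control and 7.06 RPKM with TNF-α.

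Asprv1 encodes an aspartic protease of the granular layer that trims filaggrin. It is a single exon on chromosome 6 from 86628164 to 86629710, on the plus strand. It had 208 counts in the control and 227 with TNF-α, or 4.67 and 4.25 CPM. The log2 ratio of Asprv1 was -0.13, with an interval from -0.41 to 0.14. Relative to Tgm1 in the same library, Asprv1 stood at 1.26 per length in the control (95% interval 1.05 to 1.504) and 1.68 with TNF-α (1.40 to 2.02).

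**Figure D3:**
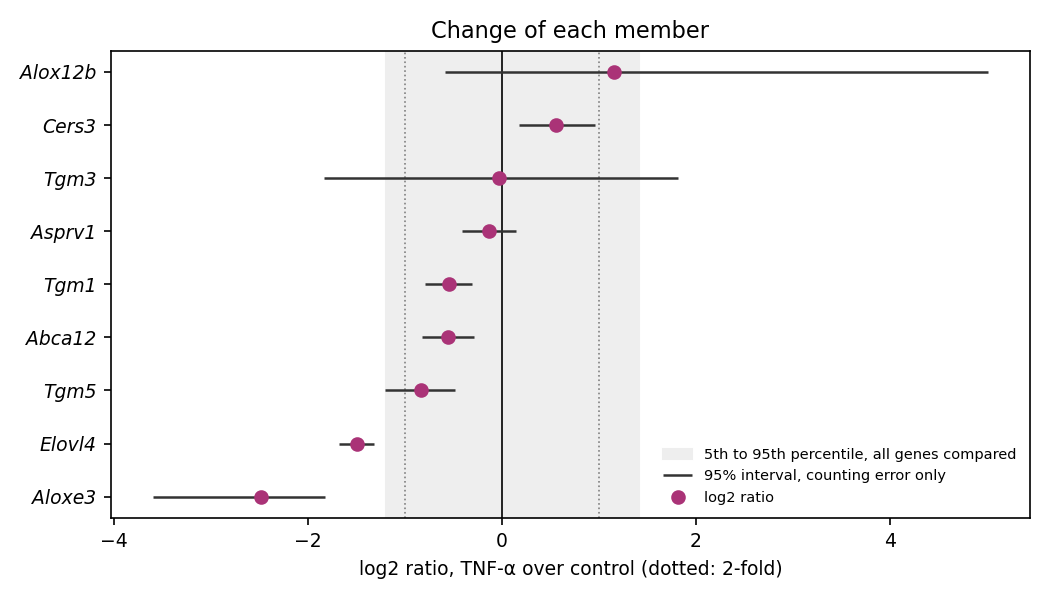
Log2 ratio of TNF-α over control for each member (points), with the 95% interval for counting error (lines), over the range from the 5th to the 95th percentile of all genes compared (grey, -1.20 to 1.42). Dotted lines mark 2-fold. Aloxe3 at -2.49 and Elovl4 at -1.49 lie below the grey range, and the intervals of Tgm3 and Alox12b are the widest.

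Levels of the members were compared per length. In the control the order was Elovl4 (6.08 RPKM), Asprv1 (3.02), Tgm1 (2.40), Tgm5 (1.15), Cers3 (0.606), Abca12 (0.391), Aloxe3 (0.260), Tgm3 (0.0326) and Alox12b (0.0185). The neighbours Asprv1 and Tgm1, and Tgm3 and Alox12b, had overlapping intervals. With TNF-α the order of levels was Asprv1 (2.75 RPKM), Elovl4 (2.15), Tgm1 (1.63), Cers3 (0.898), Tgm5 (0.642), Abca12 (0.266), Alox12b (0.0617), Aloxe3 (0.0410) and Tgm3 (0.0317). Here the intervals of Cers3 and Tgm5 overlapped, and so did those of Alox12b and Aloxe3, and of Aloxe3 and Tgm3. Thus Elovl4 went from the first to the second place. Cers3 was listed above Tgm5 with TNF-α, but with overlapping intervals their order there is not resolved. The exon length of the table includes retained introns for Abca12, Aloxe3 and Tgm5 (14808, 6397 and 3155 bases, against 9137, 3019 and 2613 bases in the longest coding transcript). Per coding length, the control level of Abca12 was 0.634 RPKM and that of Cers3 0.608 RPKM, the reverse of their order above. With TNF-α, Aloxe3 stood at 0.0869 RPKM per coding length and Alox12b at 0.0617 RPKM, also the reverse. Tgm5 was at 1.39 RPKM in the control and 0.775 RPKM with TNF-α on this scale, and kept its place in both orders. No exon of a member shared bases with another gene of the table.

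Placed in the order of the acylceramide path, an arrangement made after the values were seen, the genes were Elovl4, Cyp4f39 (the hydroxylase of the chain end), Cers3, Pnpla1 (the transacylase that adds linoleate), Abca12, Alox12b, Aloxe3 and Sdr9c7 (the dehydrogenase after Aloxe3). Of these 8 genes, 5 were called lower and 1, Alox12b, higher, against 6.62% and 8.56% of all genes compared. Cyp4f39 had 219 counts in the control and 118 with TNF-α (log2 ratio -1.14), and Pnpla1 had 36 and 10. Sdr9c7 had 16 and 2 counts, so the size of its ratio is poorly known. The lower genes thus stood before, between and after Cers3 and Abca12, which were not called.

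The wider list of 23 genes for ceramide and acylceramide synthesis had a median log2 ratio of -0.12, with 5 called lower and 0 higher. Of all genes compared, the shares to set beside this list and those below were 6.62% called lower and 8.56% higher. The 5 called lower here were Cyp4f39, Elovl3, Pnpla1, Fa2h and Sdr9c7, of which the last 4 were chosen after their values were seen. Each had 219 or fewer counts in the control. Pnpla1 shares 644 exon bases with Pnpla1os on the opposite strand. Sptlc3, a subunit of the serine palmitoyltransferase that starts the path, was at -0.79 (916 and 634 counts). At the other end were Degs2 (148 and 289 counts), the desaturase and hydroxylase of dihydroceramide, at 0.70, and Tecr (5844 and 10050 counts), the last enzyme of the elongation cycle, at 0.52. Degs2 overlaps exons of Evl on the opposite strand. The broadly used Sptlc1 and Sptlc2 had -0.19 and 0.27.

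For lamellar granule loading and lipid processing outside the cell, 16 genes had a median of -0.04, with 3 called lower and 0 higher. The 3 were Pla2g2f (16 and 2 counts), Lipn (14 and 4) and Acer1 (9 and 4), all with few counts and named after their values were seen. Among genes with at least 200 counts, the lowest were Nipal4 at -0.44 and Tmem79 at -0.40 (Tmem79 shares 1278 exon bases with Glmp on the opposite strand). The highest were Ugcg, the glucosylceramide synthase, at 0.55 with 123 and 217 counts, and Sult2b1, the cholesterol sulfotransferase, at 0.18.

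The proteins that transglutaminases and Asprv1 act on, and other terminal differentiation genes, formed a list of 22, of which 17 were compared. Here 10 were called lower and 0 higher, against 6.62% and 8.56% of all genes compared, and the median was -1.57. Krt10 was lowest at -4.62 (4433 and 214 counts), with 146 exon bases shared with Gm11940 on the opposite strand. Flg, which encodes filaggrin, the protein that Asprv1 trims, was at -3.95 (440 and 32 counts). Dmkn and Calml3 were highest, at 0.18 and 0.11. Ivl, which encodes a main Tgm1 substrate and was named after its values were seen, had 6467 and 1341 counts. The log2 ratio of Evpl was -1.001, at the 2-fold limit. Tgm1, Tgm5 and Asprv1 had ratios from -0.83 to -0.13, above the median of this list, and the difference was not tested.

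For proteases that process filaggrin and their inhibitors, 4 of 10 were called lower and 0 higher, with a median of -0.38. Klk7, a kallikrein that sheds corneocytes, was lowest at -2.76 (253 and 43 counts), followed among well counted genes by Casp14 at -1.13 (176 and 95). The other two were Klk5 and Spink5, chosen after their values were seen. St14 at 0.14 and Ctsd at 0.46 were highest, Ctsd with 808 exon bases shared with another gene on its strand. Of 19 transcription factors of epidermal differentiation, 0 were called in either direction, and their median was -0.23. The highest of them was Prdm1, a repressor in terminal differentiation, at 0.93 (107 and 246 counts). Gata3 had -0.77, with exons overlapping Gm13256 and 9230102O04Rik, and Ahr had 0.16. The grainyhead factors Grhl3, which activates Tgm1 in skin, and Grhl1 had -0.31 and -0.62, and the keratinocyte factor Klf4 had -0.39. These 3 were chosen after their values were seen.

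**Figure D4:**
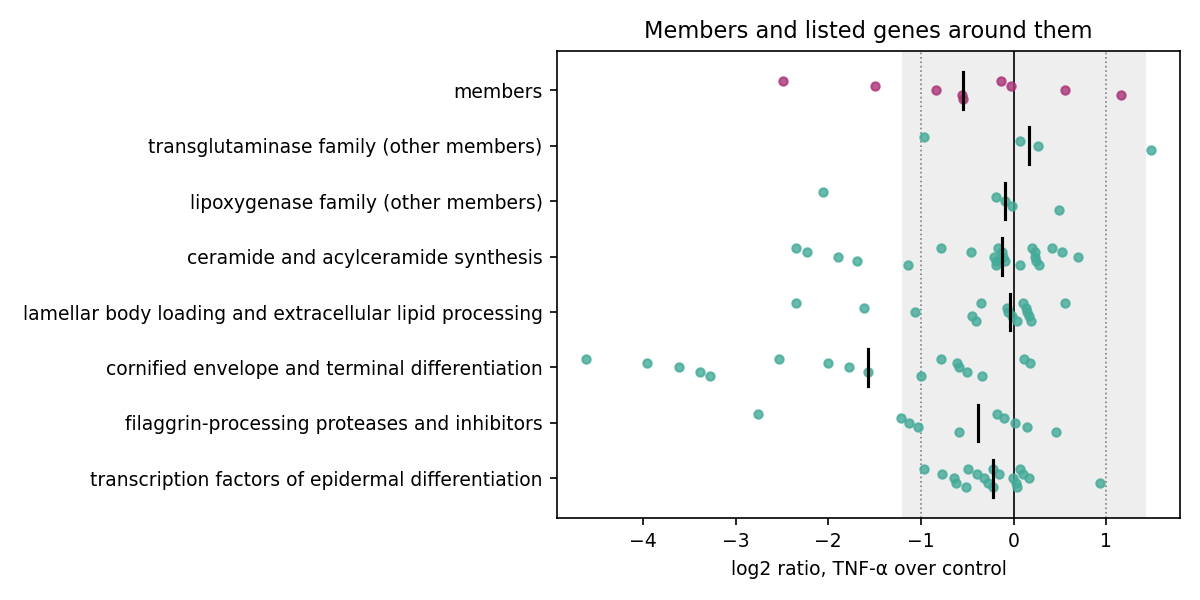
Log2 ratio of TNF-α over control for the members (purple) and for the genes of the lists around them (green, members left out), 1 point per gene compared, with the median of each row (black line), 2-fold limits (dotted) and the 5th to 95th percentile of all genes (grey). The cornified envelope row has its median at -1.57, and the transcription factor row lies within 2-fold.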

How the data were processed

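RNA-seq counts of 1 control and 1 TNF-α library (WT mouse mammary basal cells, 3D culture) were analysed. The authors deposited raw read counts per gene with exon coordinates, strand and summed exon length, in a featureCounts layout. Per the labels the build is GRCm38 (mm10). The aligner, counting tool, annotation and strand setting were not given in the sources used here. Coordinates matched GENCODE M21 on GRCm38 for 90.9% of 47240 shared gene names. The series title names a microarray, while its type and table are sequencing. The labels name an RNeasy kit and the paper's methods RNAiso Plus for RNA isolation.

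TMM scaling was done in edgeR (version 4.0.16) under R 4.3.3, over genes with at least 10 counts summed, and log2 ratios were taken from CPM with a prior count of 2. A gene past 2-fold was called. No test was run, since 1 library per group leaves no spread to estimate, and no p-value is given. The floor was 3 counts. Levels were divided by exon length for RPKM. The 9 members, 7 gene lists, marker lists and alternatives were chosen with earlier results of these data known. Named genes are the members, every other transglutaminase and lipoxygenase gene with at least 10 counts, and from each other list the pair with the highest and the pair with the lowest ratios among those with 200 counts or more. Of these, 1 gene is not reported here. With 2 libraries no genes can be named as most alike in pattern. Calls and intervals were tested on simulated data that held counting error only. Such data have no spread between cultures and no excess of even counts, so neither was covered. Promoter sequences are from RefSeq (GRCm38.p6) and transcripts from GENCODE M21, and no Aloxe3 window was used. Alternatives covered scaling (upper quartile, total counts and size factors of DESeq2 1.42.0), other filters, prior counts and folds, a counting interval beside the fold, thinning, halved counts and a lowess correction on exon length (span 0.3).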

Additional observations from a re-analysis of the deposited data

How the results depend on the processing

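No paired analysis was possible because there was 1 control and 1 TNF-α library, which also left no replicate to drop. Of the 9 members, 2 were lower by more than 2-fold under each of the 11 settings of scaling, filter, prior count, depth and length, and with a counting interval required, 3 with a fold of 1.5 and 1 with a fold of 4. The 1 member higher, Alox12b, was lost (0 higher) with at least 1 CPM in a library, a prior count of 5, thinning to the shallower depth, halved counts, at least 50 counts summed, a fold of 4, or a counting interval required beside the fold. Each member's log2 ratio stayed within its counting interval wherever it could be computed. The median of the members has no interval of its own, and it stayed within the counting interval of Tgm1, the middle member. Only Tgm3 changed sign, reaching 0.17 under 1 of 8 settings, and was not called.

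Over all genes, the numbers lower and higher (1375 and 1777) were 2981 and 2695 without a filter, 659 and 836 with at least 1 CPM, 721 and 932 with at least 50 counts summed and the scaling refitted, 2846 and 3210 with a fold of 1.5, and 342 and 540 with a fold of 4, since these settings change which genes are compared or how far a gene must move. The spread between cultures was not measured, and depth limits Tgm3 and Alox12b, with at most 8 counts in a library.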
